A study of Drosophila melanogaster with 8 samples.

Results

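The genes described here encode the subunits of the Drosophila melanogaster proteasome and their close copies. They were all protein-coding genes whose symbol starts with Prosalpha, Prosbeta, Rpn or Rpt followed by digits, 48 of 13986 protein-coding genes in the gene models used. Of these, 14 encode the core particle, 18 encode the regulatory particle, and 16 are paralogues with a T or an R after the digits of the symbol. Binding of the E-protein Daughterless (Da) near these genes was measured by anti-FLAG (F1804) ChIP-seq, that is, sequencing of the DNA that comes down with a tagged protein. The tested heads came from 3xFLAG-Da flies, in which endogenous Da carries a 3xFLAG tag in a white* background, and the Control heads came from white* flies, which have no FLAG sequence in their genome. Chromatin was made from pooled whole heads of both sexes at 1 to 3 days of age. Each line had 2 IP and 2 input libraries, 8 samples in all, and 4 peak lists were used, 1 per IP library, each called against its own input. Whole heads hold neurons, glia, fat body and other cells, so a peak has no cell type attached, and peak lists hold no expression with which to check the tissue.

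The proteasome degrades proteins tagged with ubiquitin. Its core particle is a barrel of alpha rings, which gate the entry, and beta rings, which hold the proteolytic sites. The regulatory particle caps the barrel and consists of a base, with ATPases that unfold the substrate, and a lid, which removes ubiquitin. In Drosophila, many of the T and R paralogues are known for transcription in the male germ line. Da is a basic helix-loop-helix protein that binds E-boxes, CANNTG, as a dimer.

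The sequences below come from the Release 6 genome at sites of 3xFLAG-Da (defined in the next paragraphs), 5′ to 3′, and the capitals mark the motif named. The first pair is shown because these were the only sites of the listed genes with 1 of 3 E-boxes chosen for this search within 50 bp of the summit. The first of the 3 is CAGCTG, another is CAGGTG, and the last is CAGATG. At Prosalpha4 the stretch chrX:16275658-16275687 (plus strand) held CAGGTG and CAGCTG and lay in the 5′ untranslated region of the neighbouring gene kat80. At Rpn10 the stretch chr3L:21537054-21537083 (plus strand) held CACCTG, which is CAGGTG read on the other strand, in the 5′ untranslated region of Rpn10 itself.
Prosalpha4: CAGGTGtgagccaaagtctgtgatCAGCTG
Rpn10: CACCTGgcaaccctggggaattacagttca
The next sequences were chosen after their values had been seen, as examples of sites without those E-boxes. The stretches chrX:11124726-11124826 upstream of Rpt3 and chr3R:23752805-23752858 upstream of Rpt5 (both plus strand) each held TATCGATA, the DNA replication-related element (DRE), which the Drosophila factor DREF binds. The stretch chrX:6291269-6291332 upstream of Rpt4 (minus strand) held another E-box, CAAATG, once on each strand. The sites at Rpt3, Rpt4 and Rpt5 lay nearest to the start of a neighbour on the opposite strand. These were CG11122, mldr and RanBP3, at 50, 16 and 26 bp in that order.
Rpt3: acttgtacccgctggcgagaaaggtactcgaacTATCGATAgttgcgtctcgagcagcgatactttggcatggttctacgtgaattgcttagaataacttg
Rpt5: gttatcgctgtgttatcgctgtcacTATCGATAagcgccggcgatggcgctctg
Rpt4: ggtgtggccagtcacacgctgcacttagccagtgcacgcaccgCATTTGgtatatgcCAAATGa

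A promoter peak is a peak whose summit lies within 1000 bp of a transcript start of the gene. Its fold is the deposited enrichment at the summit, the IP pileup plus 1 over the expected local background plus 1. A 3xFLAG-Da site is a region where peaks of both 3xFLAG-Da lists overlap and no Control peak overlaps, and its summit is that of the peak with the better rank by fold in its own list. Over the genome there were 6649 such sites.

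The lists differed in length and depth. 3xFLAG-Da replicates 1 and 2 held 10915 and 8745 peaks, against 453 and 707 peaks in Control replicates 1 and 2. As a measure of coverage, the lowest background at any peak of a list was taken. In fragments per position it came to 9.36 and 4.17 for 3xFLAG-Da replicates 1 and 2, against 1.92 and 1.72 for Control replicates 1 and 2. The libraries with the higher coverage were those of 3xFLAG-Da, so line and depth cannot be told apart from the peak counts alone.

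Proteasome genes had promoter peaks mostly in the 3xFLAG-Da libraries. Of the 48 genes, 33 (68.8%) had a promoter peak in 3xFLAG-Da replicate 1 and 22 (45.8%) in replicate 2. In the Control libraries it was 1 (2.08%) in replicate 1 and 3 (6.25%) in replicate 2. The 3xFLAG-Da libraries averaged 27.5 ± 7.78 genes and the Control libraries averaged 2 ± 1.41 genes (SD, n = 2 each). The groups did not overlap, and the exact permutation test over the 4 libraries gave p = 0.333 (two-sided), the smallest value that 2 against 2 libraries allow. Over all protein-coding genes, a promoter peak was found for 55.5% in 3xFLAG-Da replicate 1 and 44.3% in replicate 2, against 2.65% in Control replicate 1 and 4.69% in Control replicate 2. With both 3xFLAG-Da lists brought down to the coverage of Control replicate 1 by calculation, an alternative chosen after seeing the data, 22 and 19 of the 48 genes kept a promoter peak in replicates 1 and 2, against 1 and 3 in the Control libraries. Under the same scaling 39.4% of all protein-coding genes kept a promoter peak in replicate 1 and 36.6% in replicate 2.

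Both Control values for all 48 genes, 2.08% and 6.25%, lay near their backgrounds. So did the 3xFLAG-Da replicate 2 value, 45.8% beside 44.3% of all genes. The 3xFLAG-Da values differed between the classes of genes. Of the 32 genes of the core and regulatory particles, 31 (96.9%) had a promoter peak in replicate 1 and 21 (65.6%) in replicate 2. Of the 16 paralogues, 2 (12.5%) had a peak in replicate 1 and 1 (6.25%) in replicate 2. The particle genes thus stood above the share over all genes in both libraries and the paralogues below it, with no test made over the list.

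**Figure D1:**
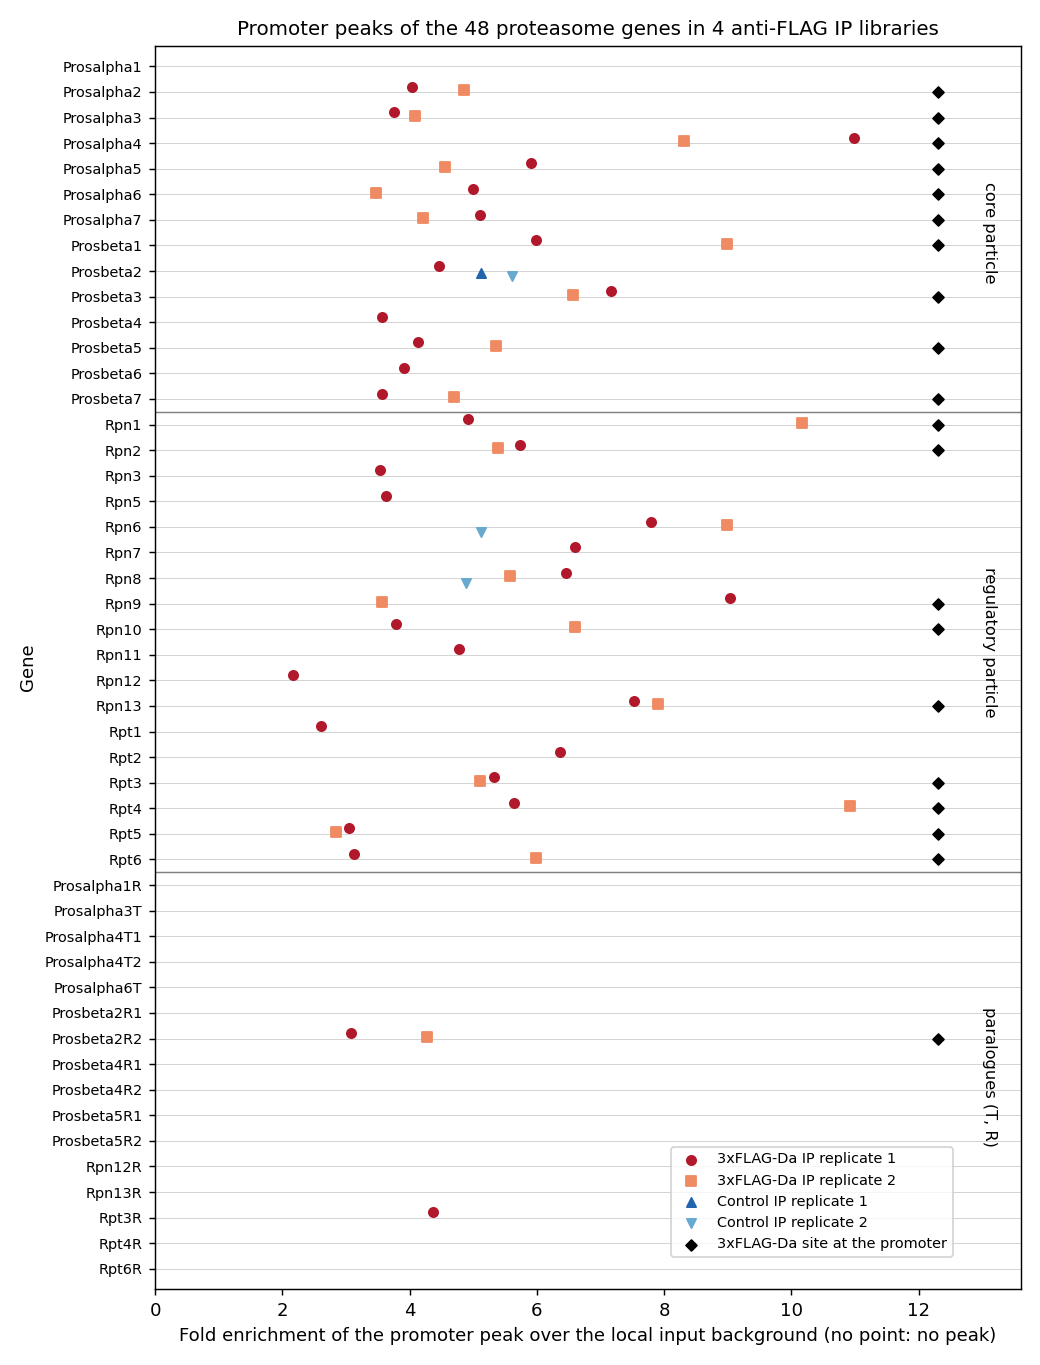
Fold enrichment (x axis, linear, over the local background) of the highest promoter peak of each of the 48 genes (rows) in the 4 IP libraries (1 marker per library), with a black diamond where the gene had a 3xFLAG-Da site. Core and regulatory particle genes lay between 2.16 and 10.98 in 3xFLAG-Da replicate 1, Control markers stood at 3 genes only, and most paralogue rows were empty.

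A 3xFLAG-Da site lay at the promoter of 20 of the 48 genes (41.7%), beside 38.7% of all protein-coding genes. The share over the whole list was therefore close to the background, and the classes differed. It was 10 of 14 core particle genes (71.4%), 9 of 18 regulatory particle genes (50%) and 1 of 16 paralogues (6.25%), and 19 of 32 (59.4%) for both particles taken as one. The order of core and regulatory genes did not hold in every setting. With only peaks of a -log10 q of at least 10, 6 of 14 core genes (42.9%) and 8 of 18 regulatory genes (44.4%) had a site, beside 28.7% of all genes. Without 3xFLAG-Da replicate 2, where a replicate 1 peak with no Control peak counts as a site, it was 12 of 14 core genes (85.7%) and 16 of 18 regulatory genes (88.9%), beside 51.5%. Under the scaling to the Control coverage the whole list had 13 of 48 (27.1%), beside 27.5% of all genes, so members and all genes fell together. By class it was 7 of 14 core genes (50%), 6 of 18 regulatory genes (33.3%) and 0 of 16 paralogues.

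Gene spacing moved with the share over all genes. A site was found at 52.5% of protein-coding genes with a start of another gene within 1000 bp and at 25.9% of those with none. Of the 32 particle genes, 22 had such a neighbour, in each case on the opposite strand, at 42 to 519 bp (median 227.5 bp). Among the 22 genes with a neighbour 13 (59.1%) had a site, and among the 10 without one 6 (60%) had a site. The particle genes without a neighbour were Prosalpha2, Prosalpha5, Prosbeta6, Prosbeta7, Rpn1, Rpn10, Rpn11, Rpn12, Rpt1 and Rpt6, and all 10 had a peak in replicate 1. Among the paralogues, 1 of 4 genes with a neighbour and 0 of 12 without one had a site.

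The rest of the account follows the sub-complexes, a division of the list that was made after the values had been seen. The outer alpha ring had sites at 6 of 7 genes, the inner beta ring at 4 of 7, the base at 8 of 10 and the lid at 1 of 8. In replicate 1 the median fold was 5.05 for the alpha ring, 4.13 for the beta ring, 5.12 for the base and 5.62 for the lid. The lid did not stand below the other groups in that library, and its few sites went with 5 genes that had no peak in replicate 2 and 2 genes whose region also held a Control peak.

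**Figure D2:**
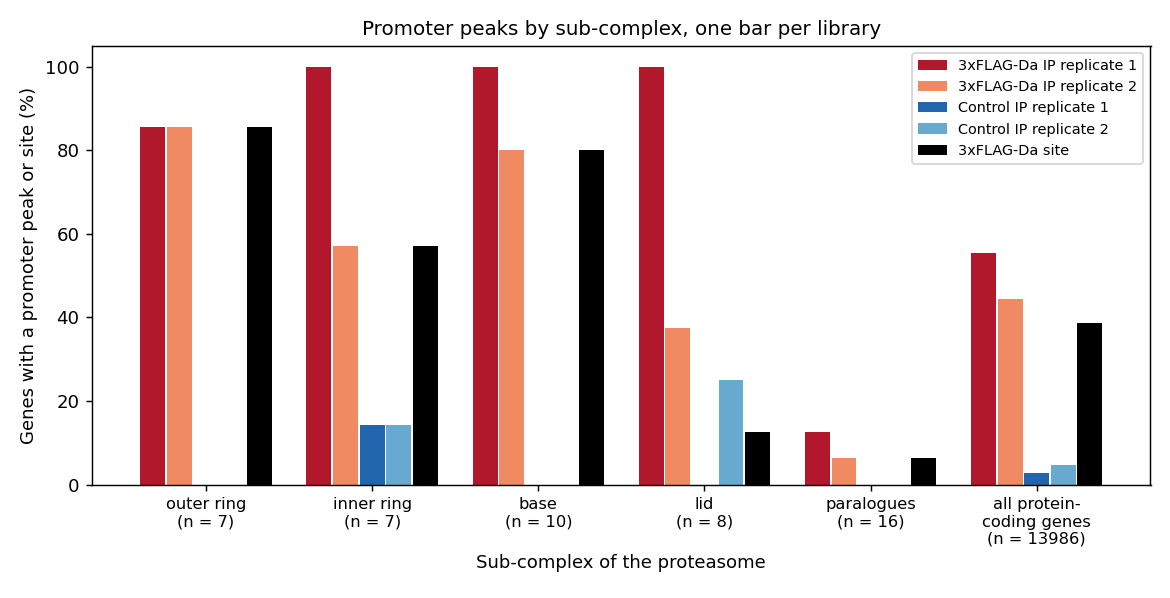
Percent of genes (y axis) with a promoter peak in each of the 4 IP libraries or with a 3xFLAG-Da site (black), for the sub-complexes, the paralogues and all protein-coding genes (x axis). The alpha ring and base bars for sites stood at 85.7% and 80%, the lid bar at 12.5% and the paralogue bar at 6.25%, beside 38.7% of all genes.

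Alpha ring genes encode the gated outer ring to which the regulatory particle docks. Prosalpha4 (chrX:16276270-16277587) had the best ranked site of the list, 535 of 6649, with a fold of 10.98 in 3xFLAG-Da replicate 1 and 8.31 in replicate 2 and no promoter peak in either Control list. Its summits lay 563 and 600 bp upstream of its start, farther than those of any other particle gene in the same library. The nearest start to the site was that of kat80, 210 bp away, and the 2 E-boxes printed above lay at this site. At a limit of 500 bp in place of 1000 bp, Prosalpha4 had no site.

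The other alpha ring genes with a site had lower folds. Prosalpha5 had 5.90 and 4.55 in replicates 1 and 2, and Prosalpha7 had 5.11 and 4.21. Prosalpha6 had 4.99 and 3.47, and its site summit lay 5 bp from the start of the neighbour Npc1a. These 3 genes were higher in replicate 1. Prosalpha2 had 4.03 and 4.86 and Prosalpha3 had 3.75 and 4.08, so both were slightly higher in replicate 2. None of the alpha ring genes had a promoter peak in a Control list.

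Prosalpha1 was the only particle gene with no promoter peak in any list. Its nearest peak was 3344 bp away in 3xFLAG-Da replicate 1 and 3771 bp away in replicate 2. The gene lies on chromosome 2R beside its copy Prosalpha1R, and all 1927 words of 75 bases (the read length) within 1000 bp of its start occur more than once in the genome. The same was true of all 1927 words at Prosalpha1R. The authors dropped reads with a mapping quality under 20, which reads that match several places equally well do not reach, so the lists give no measurement within 1000 bp of the start of these 2 genes. Both still count as genes without a peak or site in the shares given here. At 45 of the other 46 genes no word was repeated, and at Rpn3 0.774% were.

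Beta ring genes encode the inner ring, in which Prosbeta1, Prosbeta2 and Prosbeta5 carry the caspase-like, trypsin-like and chymotrypsin-like activities. Prosbeta1 (chr2R:16013805-16014787) had a fold of 5.99 in 3xFLAG-Da replicate 1 and 8.98 in replicate 2 (site rank 1114), with none in Control. Prosbeta5 had 4.13 and 5.36, with none in Control. Both sites lay nearer to a neighbour's start, 25 bp from Rrp42 for Prosbeta1 and 16 bp from dgo for Prosbeta5.

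Prosbeta2 (chr3L:14999951-15001319) was the exception among the catalytic genes. It had a fold of 4.46 in 3xFLAG-Da replicate 1 and no promoter peak in replicate 2, against 5.12 in Control replicate 1 and 5.60 in Control replicate 2. The summits lay 167 bp upstream of the start in the 3xFLAG-Da list and 137 and 161 bp upstream in the Control lists, and both Control peaks overlapped the 3xFLAG-Da peak. It was the only listed gene with a promoter peak in both Control libraries, where there is no FLAG epitope. Prosbeta2 held no site, also with regions holding a Control peak kept, because it had no promoter peak in 3xFLAG-Da replicate 2.

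Among the structural beta subunits, Prosbeta3 (chr3R:9005313-9006226) had 7.17 and 6.57 in 3xFLAG-Da replicates 1 and 2 (site rank 1382), and its summits of both replicates lay 7 bp apart. Prosbeta7 had 3.56 and 4.70. Prosbeta4 had 3.57 in replicate 1, and its nearest replicate 2 peak was 4386 bp away. Prosbeta6 had 3.91 in replicate 1. Its nearest replicate 2 peak, with a fold of 4.50, lay 1128 bp downstream of the start, past the end of the gene and outside the limit. No structural beta gene had a Control promoter peak, so Prosbeta4 and Prosbeta6 lacked a site through replicate 2 alone.

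In the base, the non-ATPase subunits are the scaffolds Rpn1 and Rpn2 and the ubiquitin receptors Rpn10 and Rpn13. All 4 had a site. Rpn13 (chr2R:13958545-13960404) had 7.52 and 7.91 in 3xFLAG-Da replicates 1 and 2 (site rank 919), and Rpn1 (chr3L:19915051-19918160) had 4.92 and 10.16 (rank 1464). Rpn2 (chr3R:29153524-29157255) had 5.74 and 5.39 (rank 2364), and Rpn10 had 3.78 and 6.59 (rank 3026). At Rpn1, Rpn2, Rpn10 and Rpn13 the site summit was nearest to the gene's own start, at 22, 102, 16 and 85 bp in that order, and none of the 4 had a Control promoter peak.

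The ATPases Rpt1 to Rpt6 form the ring that unfolds substrates, and 4 of the 6 genes had a site. Rpt4 (chrX:6289470-6291245) had 5.64 in 3xFLAG-Da replicate 1 and 10.92 in replicate 2 (rank 1035), the highest replicate 2 fold of the list. Rpt3 (chrX:11125101-11126785) had 5.33 and 5.11 (rank 2722), with summits 325 and 324 bp upstream of its start and the site 50 bp from the start of CG11122. Rpt6 had 3.13 and 5.99. Rpt5 had 3.05 and 2.84 and the lowest ranked site of the list, 6202 of 6649. Rpt1 had 2.60 in replicate 1 and its nearest replicate 2 peak was 19026 bp away, whereas Rpt2 had 6.36 in replicate 1 and its nearest replicate 2 peak was 2102 bp away. Rpt2 thus lacked a replicate 2 peak in spite of a replicate 1 fold above that of Rpt3, Rpt4, Rpt5 and Rpt6. No Rpt gene named Rpt1 to Rpt6 had a Control promoter peak.

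Lid genes include Rpn11, the deubiquitinase that removes ubiquitin chains, and its partner Rpn8. Rpn9 was the only lid gene with a site (rank 3139), with 9.03 in 3xFLAG-Da replicate 1 and 3.57 in replicate 2 and no Control promoter peak. Its 2 summits lay 117 bp apart. Rpn9 had the second highest fold of the list in replicate 1 and one of the lowest in replicate 2.

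At 2 lid genes a Control peak, without the FLAG tag, overlapped the 3xFLAG-Da peaks. Each of these genes has 2 annotated starts, and the peaks lay inside the gene, upstream of the inner start. Rpn6 (chr2R:14750166-14752910) had 7.80 and 8.99 in 3xFLAG-Da replicates 1 and 2, against no peak in Control replicate 1 and 5.12 in Control replicate 2. Its pileup was 159 and 60 fragments in 3xFLAG-Da replicates 1 and 2, against 20 fragments in Control replicate 2. Rpn8 (chr2R:24400028-24404527) had 6.46 and 5.58 in 3xFLAG-Da replicates 1 and 2, against no peak in Control replicate 1 and 4.89 in Control replicate 2. At Rpn8 the summit lay 122 and 480 bp upstream of the inner start in 3xFLAG-Da replicates 1 and 2. In Control replicate 2 it lay 492 bp upstream of the same start. With regions holding a Control peak kept, Rpn6 and Rpn8 both had a site and the count over the list was 22 of 48.

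The 5 remaining lid genes had a peak in 3xFLAG-Da replicate 1 alone. Rpn7 had the highest fold, 6.60, Rpn11 had 4.78, Rpn5 had 3.62 and Rpn3 had 3.54. Rpn12 had 2.16, the lowest promoter fold of any particle gene and 10609 of 10915 peaks in that list. The nearest replicate 2 peak lay 2741 bp away for Rpn7, 3227 bp for Rpn11, 2108 bp for Rpn5 and 2675 bp for Rpn3. For Rpn12 a replicate 2 peak with a fold of 8.16 lay 1275 bp downstream of the start, past the end of the gene. Within 2000 bp both Rpn12 and Prosbeta6 had a site. No other gene of the list gained one at that distance.

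In all, 10 particle genes had a promoter peak in replicate 1 and none in replicate 2, and no particle gene had the reverse. Over all protein-coding genes 7763 (55.5%) had a promoter peak in replicate 1 and 6195 (44.3%) in replicate 2. The lower count in replicate 2 was thus not particular to the particle genes. How many of all genes had a peak in only 1 of the replicates was not counted. The replicate 1 fold had a median of 3.77 (2.16 to 6.60) at these 10 genes and of 5.33 (3.05 to 10.98) at the 21 genes with a peak in both. Replicate 2 had the lower coverage of the 2 libraries, 4.17 against 9.36 fragments per position, and the part of depth in these losses was not tested. For the 21 genes with both peaks the folds were only loosely ordered alike (Spearman's rho 0.374, Pearson's r 0.339, across 21 genes that share both libraries and are not independent replicates), and 11 of the 21 were higher in replicate 2.

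**Figure D3:**
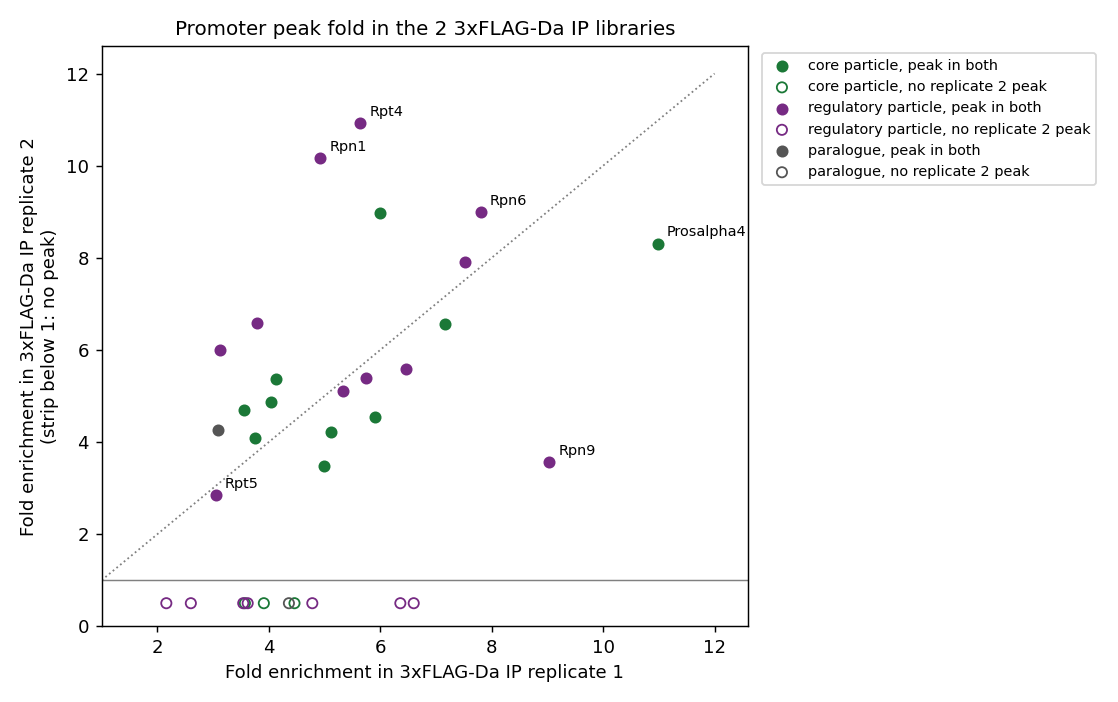
Fold of the promoter peak in 3xFLAG-Da replicate 1 (x axis) against replicate 2 (y axis), 1 point per gene, with genes without a replicate 2 peak as open circles in the strip below 1 and equal folds on the dotted line. Genes with open circles reached a replicate 1 fold of 6.60 at most, while Rpt4 and Rpn1 lay far above the line and Rpn9 far below it.

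Folds of the particle genes were close to those of promoter peaks in general. The median was 4.92 in 3xFLAG-Da replicate 1 (31 genes) and 5.39 in replicate 2 (21 genes), beside 4.34 and 5.02 over all promoter peaks of protein-coding genes in replicates 1 and 2. The ranks of the 20 sites ran from the top 8.05% to the lowest, 93.3%, with a median of 46.4%. The particle genes stood above all genes in how many had a peak, and close to them in fold.

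Summits sat just upstream of the starts. Positions were taken to the nearest of a gene's annotated starts. In 3xFLAG-Da replicate 1 all 31 summits at particle genes were upstream of that start, at a median of -95 bp (-563 to -6). This stood beside 74.2% upstream and a median of -95 bp over all genes with a promoter peak. At Prosbeta7, Rpn6, Rpn8, Rpn9 and Rpt2 the replicate 1 summit lay inside the gene, downstream of its outermost start. In replicate 2, 15 of 21 were upstream, at a median of -74 bp (-600 to 42), beside 67.1% and -63 bp over all genes. Of the 20 sites, 18 lay within 200 bp of the start of the listed gene, and 11 had that gene's start as the nearest. The other 9 were nearer to the start of a neighbour, so a site between divergent genes cannot be assigned to one of them from its position.

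**Figure D4:**
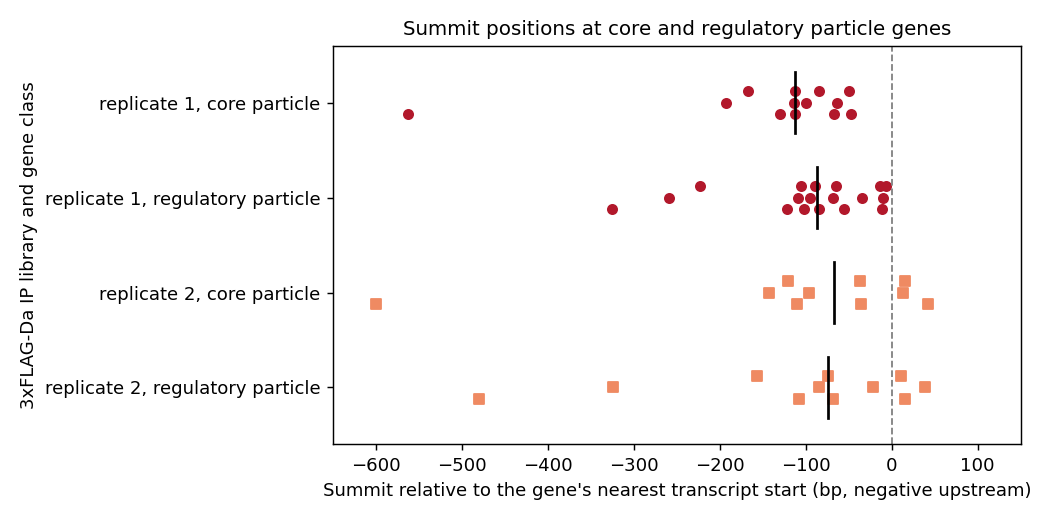
Position of the promoter peak summit relative to the gene's nearest transcript start (x axis, bp, negative upstream), 1 point per gene, for core and regulatory particle genes in 3xFLAG-Da replicates 1 and 2 (rows), with a black line at the median and a dashed line at the start. All 31 replicate 1 points lie left of the dashed line, and 15 of 21 replicate 2 points do.

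The 16 paralogues differed from the particle genes they resemble. Their 12 parent genes had a promoter peak in 11 cases in 3xFLAG-Da replicate 1 and in 8 cases in replicate 2, and 8 had a site. Prosbeta2R2 was the only paralogue with a site (rank 5053), with 3.08 in 3xFLAG-Da replicate 1 and 4.27 in replicate 2 and none in Control. That site lay 14 bp from the start of the divergent neighbour CG1116 and 143 bp upstream of Prosbeta2R2. Rpt3R had 4.36 in 3xFLAG-Da replicate 1 alone, 121 bp downstream of its start, and a start of Alg12 lies 19 bp from that of Rpt3R.

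The other 14 paralogues had no promoter peak in any of the 4 lists. These were Prosalpha1R, Prosalpha3T, Prosalpha4T1, Prosalpha4T2, Prosalpha6T, Prosbeta2R1, Prosbeta4R1, Prosbeta4R2, Prosbeta5R1, Prosbeta5R2, Rpn12R, Rpn13R, Rpt4R and Rpt6R. Their nearest peak lay 3840 to 47567 bp from the start in 3xFLAG-Da replicate 1 (median 9728 bp) and 3729 to 46169 bp in replicate 2 (median 23106 bp). Rpt6R had the nearest, at 3840 and 3729 bp, and Prosbeta5R1 the farthest in replicate 1, at 47567 bp. Apart from Prosalpha1R, none had repeated words near its start. Among the parents of these genes, Prosalpha4 had the highest fold in replicate 1 (10.98) and Rpt4 the highest in replicate 2 (10.92).

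E-boxes near the summits depended on which summit was read. The 3 E-boxes were reported by the study from the same ChIP-seq data, so the share over all promoter sites is not an independent background for them. Of the 20 sites, 2 (10%) had 1 of the 3 E-boxes on either strand within 50 bp of the summit, against 24% of 4464 promoter sites in the genome and 12.5% of 40 windows shifted by 250 bp to either side of the same summits. CAGCTG was in 1 site (5%, beside 13.4%), CAGGTG in 2 sites (10%, beside 6.85%) and CAGATG in none (beside 5.87%). Read at the replicate 1 summits, 1 of 31 particle genes (3.23%, Prosalpha4) had one of these E-boxes, beside 20.3% of promoter peaks. At the replicate 2 summits it was 5 of 21 (23.8%), beside 23.9%, and these were Prosalpha2, Prosalpha4, Rpn8, Rpn9 and Rpn10. The replicate 2 share equalled its background and the replicate 1 share was below it. These shares cover different sets of genes, and the region of Rpn8 also held a Control peak. Over the same 20 sites, 1 had one of these E-boxes at the replicate 1 summit and 4 at the replicate 2 summit. An E-box of any kind (CANNTG) was in 6 of the 20 sites (30%), beside 47.6% of promoter sites.

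The DRE was looked for in addition, after the peaks had been seen. TATCGATA was in 5 of the 20 sites (25%), beside 4.75% of promoter sites. It was in 0 of the 40 shifted windows, beside 0.403% of the shifted windows of all promoter sites. The sites were those of Prosalpha3, Prosalpha5, Prosbeta1, Rpt3 and Rpt5. By library it was in 6 of 31 replicate 1 windows (19.4%, beside 4.67%), with Prosbeta6 as the addition, and in 2 of 21 replicate 2 windows (9.52%, beside 3.70%), those of Prosbeta1 and Rpt3. The antioxidant response element TGACNNNGC, which the factor CncC binds, was in 1 site (5%), beside 3.74%, that of Rpn1. A match only says that the letters are present in the window.

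**Figure D5:**
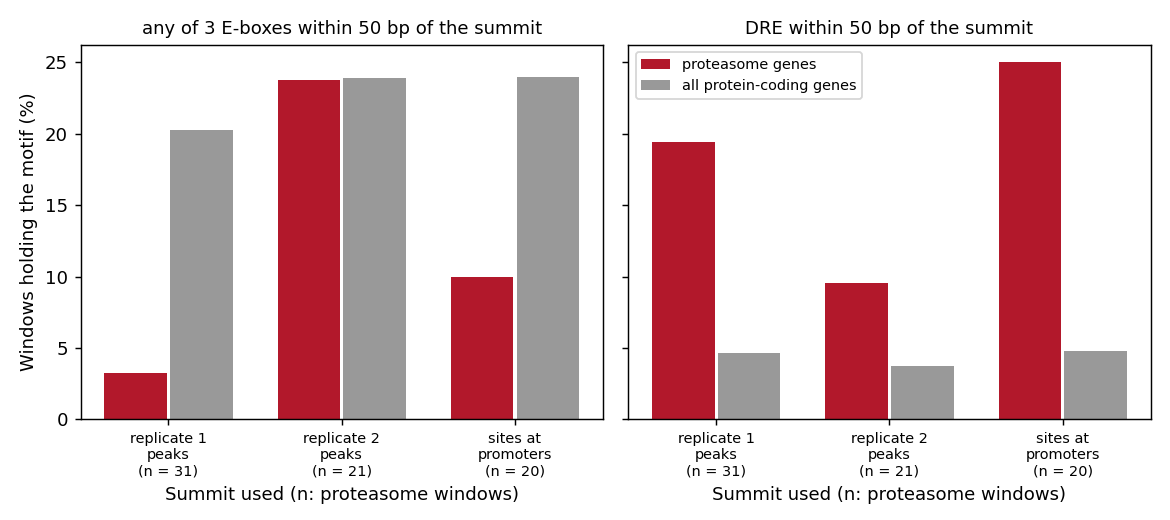
Percent of windows of 50 bp to either side of the summit (y axis) that held 1 of the 3 E-boxes (left) or the DRE (right), for proteasome genes (red) and all protein-coding genes (grey), with replicate 1 peaks, replicate 2 peaks or sites as the source of the summit (x axis). The E-box share of the proteasome genes was 3.23% in replicate 1 and 23.8% in replicate 2, and the DRE share was above the grey bar in all 3 sources.

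Other genes of the pathway were taken from a list of 23 genes for ubiquitin, shuttle factors, the p97 machine, assembly, activators, associated deubiquitinases and the CncC route. Of these, 23 had a promoter peak in 3xFLAG-Da replicate 1 and 20 (87%) in replicate 2, against 2 (8.7%) in each Control library, and 19 (82.6%) had a site. Over all protein-coding genes the shares were 55.5% and 44.3% in 3xFLAG-Da replicates 1 and 2, against 2.65% and 4.69% in Control replicates 1 and 2, and 38.7% for sites. The p97 ATPase TER94, which extracts ubiquitinated proteins, had folds of 8.65 and 14.55 in 3xFLAG-Da replicates 1 and 2, and its cofactor Ufd1 had 7.73 and 15.79, neither with a Control promoter peak. Npl4, another p97 cofactor, had 6.65 and 12.52 in 3xFLAG-Da replicates 1 and 2, against 7.77 and 3.98 in Control replicates 1 and 2, and is counted with a site because those Control peaks did not overlap it. The shuttle factor Ubqn, which brings substrates to the proteasome, had 8.50 and 12.77. In replicate 2 TER94, Ufd1 and Ubqn lay above all 48 proteasome genes, whose highest replicate 2 fold was the 10.92 of Rpt4.

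The route by which fly cells raise proteasome gene transcription also held sites. The transcription factor gene cnc had 8.65 and 12.83 in 3xFLAG-Da replicates 1 and 2, and Keap1, which encodes the inhibitor of CncC, had 11.79 and 9.99. The partner gene maf-S had 3.93 in replicate 1 alone. Pomp, the core assembly chaperone, had 7.67 and 9.43, and Sem1, a small lid subunit whose symbol falls outside the rule, had 3.37 and 4.47. The 4 genes without a site were maf-S, Rad23 and PI31, with 3.93, 5.31 and 3.48 in replicate 1 and no replicate 2 peak, and Ubi-p5E. The polyubiquitin gene Ubi-p5E had 2.32 and 3.83 in 3xFLAG-Da replicates 1 and 2, against 5.13 and 5.64 in Control replicates 1 and 2. Ubi-p5E and Npl4 were the genes of this list with promoter peaks in both Control libraries, as Prosbeta2 was among the proteasome genes.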

How the data were processed

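Per the labels and the study's methods, reads of 75 bases were aligned to BDGP6 with Bowtie2 2.5.1, reads with a mapping quality under 20 were removed, and peaks were called with MACS2 2.2.7.1 (q = 0.05, IP over the matched input). The deposited peak lists give the fold enrichment (a ratio) at the summit, -log10 p and -log10 q values and the summit offset. The deposited score, derived from the q value, was not used. No read counts were used, and the pileup and background behind each fold were recovered from fold and -log10 p, with a largest mismatch of 0.000841.

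Gene models were those of Ensembl release 115 (BDGP 6.54), on the same Release 6 assembly: 99.5% of first coding triplets read ATG. Peaks shared at least 1 bp to overlap. The exact permutation test compared the 4 libraries, and all else is counts set beside those of all genes (Python 3.11.15, SciPy 1.17.1), checked on planted peaks. Members, gene lists and alternatives were chosen with earlier results of these data known. Every member is named. Full values went to the 8 best ranked sites, genes with Control peaks, genes lacking a 3xFLAG-Da peak, and paralogues.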

Additional observations from a re-analysis of the deposited data

How the results depend on the processing

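The difference of 25.5 genes between the mean 3xFLAG-Da and the mean Control library kept its direction in all 11 alternatives, from 8 genes, among members with no other start within 1000 bp, to 31 genes. It was 18.5 genes after scaling and 20 to 31 genes when 1 library was left out. Paired by replicate number, a block that the labels give no shared batch for, it was 25.5 genes with an exact permutation p = 0.5, the smallest that 2 pairs allow. Counts of genes with a site, among 48 members, 14 core, 18 regulatory, 16 paralogue, 23 pathway and 13986 protein-coding genes, moved by over 1.5 times as follows. Among genes with no other start within 1000 bp they were 6 of 22, 3 of 4, 3 of 6, 0 of 12, 7 of 8 and 1875 of 7245. With a -log10 q of at least 10 the core count was 6, beside 8 regulatory genes, and the paralogue count 0. The 8 include Rpn6 and Rpn8, whose Control peaks fell below the same threshold. Scaled to the Control replicate 1 coverage, an alternative chosen after seeing the data, the member count was 13 of 48 (27.1%), beside 3846 of 13986 genes in all (27.5%), and the paralogue count 0. With 1 library left out, regulatory genes ranged from 9 to 16 and paralogues from 1 to 2. The other counts stayed within 1.5 times. Members ranged from 20 to 30, core genes from 10 to 12, pathway genes from 19 to 22 and all genes from 5486 to 7207. The highest values came without 3xFLAG-Da replicate 2, where a site is any replicate 1 peak without a Control peak. Sites with 1 of the 3 E-boxes, 2 of 20, were 4 within 100 bp, 1 with the 500 bp limit, 1 at the replicate 1 summit, 4 at the replicate 2 summit and 1 to 4 with 1 library left out. The causes were not tested. Folds rest on 15 to 159 fragments at member summits, and a gene without a peak is one below the calling threshold at that depth, not one without binding. Prosalpha1 and Prosalpha1R are apart from this, since repeated sequence left them without a measurement near the start.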
